A study of Mus musculus domesticus and Mus musculus molossinus with 8 samples.

Results

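A panel of 42 genes of the cell cycle and DNA replication was followed in mouse liver and thymus by RNA sequencing. The genes were chosen by symbol for their known role, with earlier results of these data known. All 42 were found among the 23284 genes of each deposited table. The panel holds 3 D-type cyclins, 3 genes of the G1/S cyclin step, 4 transcription factors, 14 replication genes and 18 mitosis genes.

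The 8 libraries came from 4 mice aged 8 weeks, and the liver and the thymus of each mouse were both sequenced. One mouse of the C57BL/6 strain (B6), a classical laboratory strain, and 1 of the MSM/Ms strain (MSM), a wild-derived Japanese strain, were untreated. One mouse of each strain was injected intraperitoneally with 1.5 µg of MegaFasL, a multimeric form of Fas ligand, the protein that triggers apoptosis through the receptor Fas. No genetic modification is given for any mouse, the untreated mice are not described as having received a mock injection, and the sources used here do not give the time from injection to harvest. Each of the 8 groups is thus a single library, and each strain and treatment is a single mouse.

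In the cell cycle, D-type cyclins carry a growth signal into G1, cyclin E with CDK2 and the E2F factors open S phase, and the MCM helicase unwinds DNA at licensed origins. Cyclins A and B with CDK1 then start mitosis, in which the spindle checkpoint, the chromosomal passenger complex and the kinesin motors act until the anaphase-promoting complex ends it. The thymus of a young mouse holds many dividing thymocytes, whereas most hepatocytes of an adult liver are out of the cycle and can re-enter it after injury.

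Levels are FPKM, fragments scaled to transcript length and to the number of mapped fragments, and 4 values of 1 tissue are always given in the order untreated B6, untreated MSM, injected B6 and injected MSM. Differences are of log2(FPKM + 1), which understates differences of low genes. Untreated and injected libraries were normalized in separate tables, so each main test of tissue or strain was taken within a table or a mouse. Alternative fits without the treatment or mouse term, such as the strain fits that left out a library, did not hold to this. Before the results, 2 features of the libraries need stating. The untreated MSM thymus held 2981 FPKM of 8 hepatocyte markers against 40.4 to 197 in the other thymi, and 1013 FPKM of 5 adipose markers and 1130 FPKM of 4 airway markers against at most 137 and 7.01. The livers held 12 thymocyte markers (among them Cd3e, Cd4 and Rag1) at a summed 1.76%, 0.458%, 0.330% and 0.240% of the thymus of the same mouse, so the untreated B6 liver carried the most. Hepatocyte markers were 8.36 to 9.17 higher (log2) in liver than in thymus and all 12 thymocyte markers were higher in thymus (limma, adjusted p under 0.05), in accord with the labelled tissues. The depth behind these values was low in liver. From the steps of low FPKM values, 1 FPKM on 1 kb of transcript was estimated to stand for 2.83 to 3.42 fragments in thymus and 1.56 to 1.78 in liver. The median member then rested on 193 to 248 fragments in a thymus but 3.5 to 8 in a liver, and 23, 32, 30 and 28 of the 42 members had fewer than 10 fragments in the 4 livers. The lower bound that the authors deposited beside each FPKM was 0 for every member in every library.

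Nearly the whole panel was lower in liver than in thymus. Of 42 members, 40 were lower in liver, 1, the D-type cyclin Ccnd1, was higher, and the thymidine kinase Tk1 did not pass the test (limma on log2(FPKM + 1) with the mouse as a block, adjusted p under 0.05 over 12880 genes). Among all genes 32.1% were called lower in liver and 28.6% higher. The median difference of the members, liver minus thymus, was -3.50, beside -0.13 over all genes tested. In 39 members every thymus lay above every liver, as in 29.9% of all genes, and for Ccnd1 alone every liver lay above every thymus, as in 26.3% of all genes. In these bulk samples fewer dividing cells and less RNA per cell cannot be told apart. When all libraries were rescaled to a common sum of FPKM, the median over all genes moved from -0.13 to -0.98, 41 members were called lower in liver, Tk1 among them at -0.79 (adjusted p = 0.00571), and Ccnd1 was no longer called. Under that scaling 56.9% of 13338 genes were called lower in liver and 15.6% higher.

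**Figure D1:**
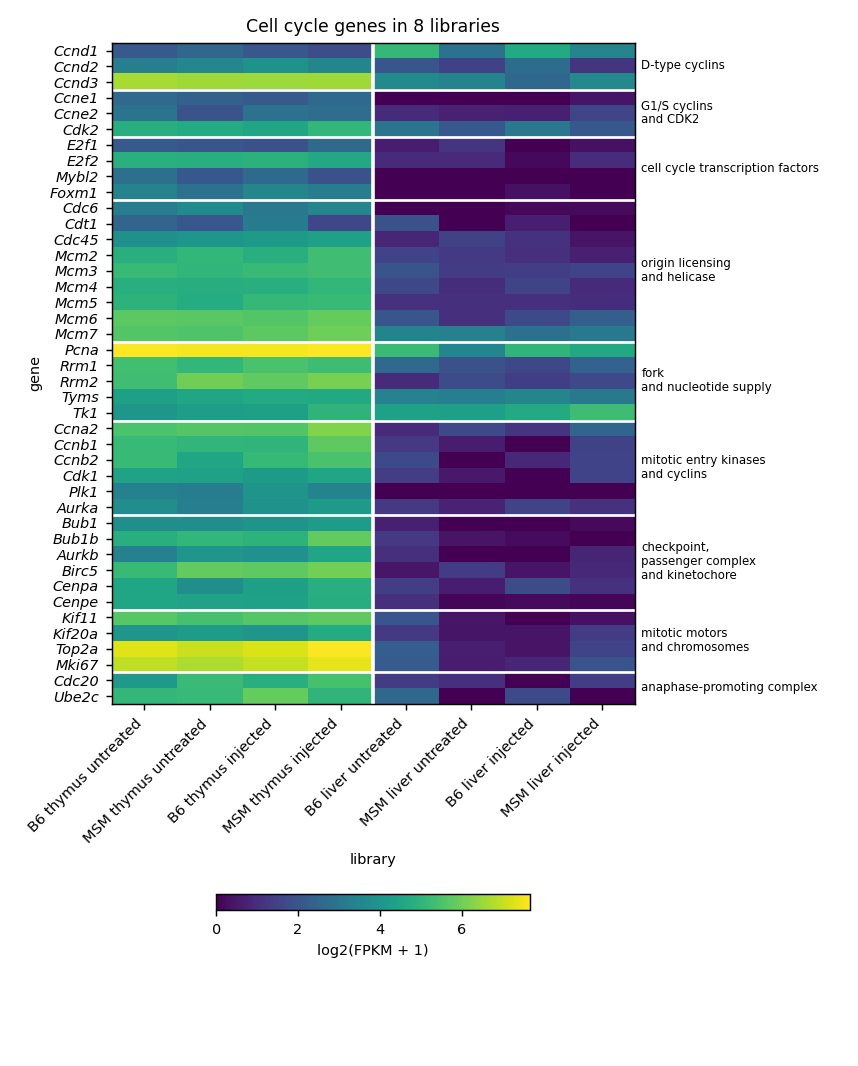
Level of each of the 42 genes (rows, grouped by role between white lines) in each of the 8 libraries (columns, 4 thymi left and 4 livers right), as log2(FPKM + 1) in colour. The thymus side is brighter in 40 of 42 rows by the test, with Ccnd1 brighter in liver and Tk1 about even.

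The D-type cyclins differed in the tissue where they were higher. Ccnd1 (mm10 chr7:144929931-144939925, minus strand), the D-type cyclin that hepatocytes use when they enter the cycle, stood at 3.39, 4.83, 3.22 and 2.5 FPKM in the thymi and at 33.2, 6.43, 24.9 and 10.3 FPKM in the livers. Each liver was above every thymus, but the B6 livers were well above the MSM livers. The difference, liver minus thymus, was 1.90 ± 0.44 (SE, adjusted p = 0.0109), and adjusted p ranged from 0.00165 to 0.0905 over the alternatives, with the highest under the common sum, where the difference was 0.99. Ccnd3 (mm10 chr17:47505051-47599691, plus strand), the D-type cyclin needed for expansion of early thymocytes, showed the reverse at 99.95, 94.8, 92.6 and 95.4 FPKM in thymus and 11.7, 9.75, 5.0 and 11.1 FPKM in liver. Its thymus values lay within 92.6 to 99.95 FPKM, and the difference was -3.28 ± 0.22 (SE, adjusted p = 1.11e-04). Ccnd2 had 8.64, 10.7, 14.4 and 10.5 FPKM in thymus and 3.17, 1.87, 5.49 and 1.26 FPKM in liver, and differed by -1.71 ± 0.26 (SE, adjusted p = 0.00219). In thymus Ccnd3 was therefore the most abundant of the 3 per length and Ccnd1 the least, while Ccnd1 led in the B6 livers and Ccnd3 in the MSM livers.

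The G1/S genes and transcription factors were low in liver. Cdk2, the kinase partner of cyclin E, was measured at 27.9, 25.5, 21.9 and 32.9 FPKM in thymus and 6.71, 3.37, 7.48 and 3.35 FPKM in liver, with a difference of -2.23 ± 0.29 (SE, adjusted p = 0.00105). Ccne1, a cyclin E, had 5.13, 4.24, 3.55 and 5.12 FPKM in thymus and was listed at 0 in 3 livers. Ccne2, the other cyclin E, was present in all livers at 0.592 to 2.04 FPKM, below all thymi at 2.89 to 6.69 FPKM. E2f2, an activator of S-phase genes, was the most abundant of the 4 transcription factors in every thymus (28.4, 26.8, 29.3 and 23.6 FPKM) and reached at most 0.981 FPKM in liver. E2f1 had 3.47, 3.14, 2.76 and 5.26 FPKM in thymus and 0.539, 1.28, 0 and 0.282 FPKM in liver. Mybl2, which drives late cell cycle genes as part of the MuvB complex, was listed at 0 in all 4 livers beside 6.13, 3.34, 5.17 and 2.75 FPKM in thymus. Foxm1, a factor for G2/M genes, was above 0 in only the injected B6 liver, at 0.267 FPKM, beside 6.38 to 10.3 FPKM in the thymi.

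**Figure D2:**
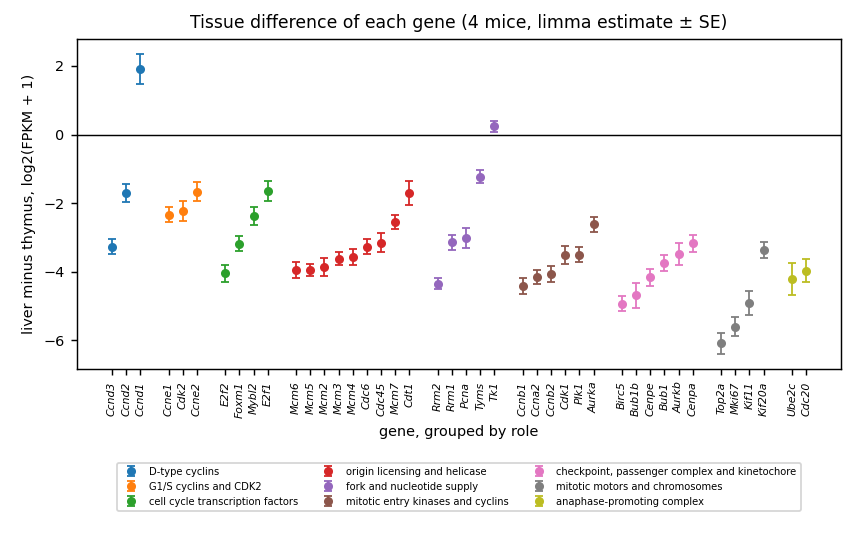
Difference of log2(FPKM + 1), liver minus thymus, for each of the 42 genes (points, limma estimate over 4 mice; bars, SE), grouped and coloured by role. Ccnd1 at 1.90 and Tk1 at 0.24 are the 2 points above the line at 0, and the motor and chromosome genes Top2a at -6.09 and Mki67 at -5.60 lie lowest.

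Of the 14 replication genes 13 were lower in liver, and Tk1 was the one that was not called. All 6 subunits of the MCM helicase were lower in liver, by 2.54 (Mcm7) to 3.95 (Mcm5 and Mcm6). Mcm7 kept the most, at 9.99, 9.22, 6.08 and 7.54 FPKM in liver beside 48, 46.2, 52.6 and 61.8 FPKM in thymus. Mcm5 was nearly level across the livers at 1.13, 1.08, 1.04 and 0.987 FPKM, beside 29.8, 25.7, 33.2 and 35.4 FPKM in thymus. Cdc6, which loads the helicase, was listed at 0 in both untreated livers and reached at most 0.147 FPKM in the injected ones, beside 7.39 to 11.4 FPKM in thymus. Pcna (mm10 chr2:132249162-132253314, minus strand), the sliding clamp of DNA polymerases, was the most abundant member in thymus at 200, 188, 190 and 203 FPKM. In liver it stood at 36.8, 10.4, 31.5 and 24 FPKM, lowest in the untreated MSM mouse, and the tissue difference was -3.01 ± 0.30 (SE, adjusted p = 3.81e-04).

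The nucleotide supply genes ranged widely in their tissue difference. Rrm2, the cycle-regulated subunit of ribonucleotide reductase, had 38.6, 63.2, 54.6 and 67.3 FPKM in thymus and 0.923, 2.34, 1.69 and 2.25 FPKM in liver, a difference of -4.35 ± 0.16 (SE, adjusted p = 6.63e-05). Its partner Rrm1 differed by -3.14 ± 0.23 (SE, adjusted p = 1.35e-04). Tyms, thymidylate synthase, had 19.5, 21.9, 24.7 and 24.3 FPKM in thymus and 9.65, 9.0, 10.2 and 7.6 FPKM in liver, a difference of -1.23 ± 0.18 (SE, adjusted p = 0.00168). Tk1 (mm10 chr11:117815526-117826092, minus strand), the thymidine kinase of the salvage pathway, was measured at 15.7, 18.8, 19.6 and 31.1 FPKM in thymus and 19.8, 19.3, 24.8 and 38.2 FPKM in liver. In each mouse the liver was above the thymus, at 127%, 103%, 127% and 123% of it, and the difference was 0.24 ± 0.16 (SE, adjusted p = 0.219), which missed the threshold. The direction of Tk1 thus depended on the scaling between tissues, as given above. The upper bounds that the authors deposited for Tk1 were 37.4, 44.1, 45.6 and 74.7 FPKM in thymus. In liver they were wider, at 79.5, 86.5, 114 and 145 FPKM.

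All 18 mitosis genes were lower in liver, and for all 18 every thymus lay above every liver. Top2a (mm10 chr11:98992943-99024189, minus strand), the topoisomerase that untangles chromosomes, had 157, 133, 151 and 195 FPKM in thymus and 3.88, 0.576, 0.332 and 1.9 FPKM in liver, a difference of -6.09 ± 0.31 (SE, adjusted p = 7.19e-05). Mki67 (mm10 chr7:135689784-135716361, minus strand), which coats mitotic chromosomes and is the usual marker of cycling cells, had 121, 106, 128 and 165 FPKM in thymus and 3.64, 0.527, 0.788 and 2.96 FPKM in liver, a difference of -5.60 ± 0.29 (SE, adjusted p = 7.19e-05). For both genes the untreated B6 and injected MSM livers were the higher pair. The Mki67 values of the livers rested on an estimated 58, 9, 14 and 46 fragments, with exact Poisson intervals of 44 to 75, 4.12 to 17.1, 7.65 to 23.5 and 33.7 to 61.4 at 95%. These intervals cover counting error only.

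The spindle motor Kif11 had 49.8, 42, 49.5 and 53.4 FPKM in thymus and 3.16, 0.375, 0 and 0.275 FPKM in liver, where the untreated B6 mouse stood apart. Birc5 (survivin), a subunit of the chromosomal passenger complex, had 35, 55.5, 53.5 and 65.2 FPKM in thymus and 0.379, 1.5, 0.346 and 0.826 FPKM in liver. Its kinase Aurkb was listed at 0 in the untreated MSM and injected B6 livers. Bub1b, a spindle checkpoint kinase, reached 1.4 FPKM in the untreated B6 liver and at most 0.333 FPKM in the others, beside 27.1, 32.5, 29.9 and 55.8 FPKM in thymus. Plk1, a kinase of mitotic entry, was listed at 0 in all 4 livers beside 9.28, 8.5, 14.5 and 9.94 FPKM in thymus. Ccna2, the cyclin of S phase and early mitosis, had 44.2, 48.1, 47.3 and 73 FPKM in thymus and 0.933, 2.21, 1.28 and 4.63 FPKM in liver. It was lowest in the untreated B6 liver and highest in the injected MSM liver. Ube2c, the ubiquitin-conjugating enzyme of the anaphase-promoting complex, was above 0 in B6 livers only, at 5.01 and 2.29 FPKM, beside 33, 35.5, 56.6 and 31.7 FPKM in thymus.

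Most other genes of the pathway were also lower in liver. Of 42 further replication genes 38 were lower in liver and 1 was higher, beside 32.1% and 28.6% of all genes. Of 52 further mitosis genes 50 were lower in liver and none higher. Of the 26 measured brakes and G1 regulators 18 were lower and none higher, and their median difference of -1.64 was nearer to 0 than that of the further mitosis genes, -3.26. The greatest tissue differences in the 3 lists among genes of at least 5 FPKM were those of Uhrf1, a cofactor of maintenance DNA methylation (-5.19), of the condensin subunit Smc4 (-4.50) and of the antiproliferative gene Btg2 (-3.99).

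Within each mouse, the liver kept a larger percentage of the thymus level of the replication genes than of the mitosis genes. The median liver level over the 14 replication genes was 8.13%, 4.57%, 5.85% and 4.11% of the thymus of the same mouse. The corresponding medians over the 18 mitosis genes were 5.75%, 0.960%, 0.576% and 2.53%. The replication genes were thus ahead in all 4 mice. On the log2 scale within a library, the median of the replication genes exceeded that of the mitosis genes by 0.66, 0.93, 1.18 and 0.53 in the livers and by 0.21, 0.11, 0.06 and 0.004 in the thymi. All 8 values were positive with no overlap between the tissues, but their size in liver changed with the added constant. This comparison was not tested. The thymocyte markers stood at a median of 1.66%, 0.346%, 0.406% and 0.171%, below the mitosis genes in each mouse. When each liver was reduced by the thymus profile in proportion to its summed thymocyte markers, Mki67 stood at 1.54, 0.0417, 0.367 and 2.57 FPKM and Top2a at 1.14, 0, 0 and 1.44 FPKM, so the untreated B6 values were then below the injected MSM ones. Ccnd1 remained at 33.7, 6.44, 25 and 10.3 FPKM. This reduction was chosen after seeing the data, and it left 40 members lower in liver and 1 higher.

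**Figure D3:**
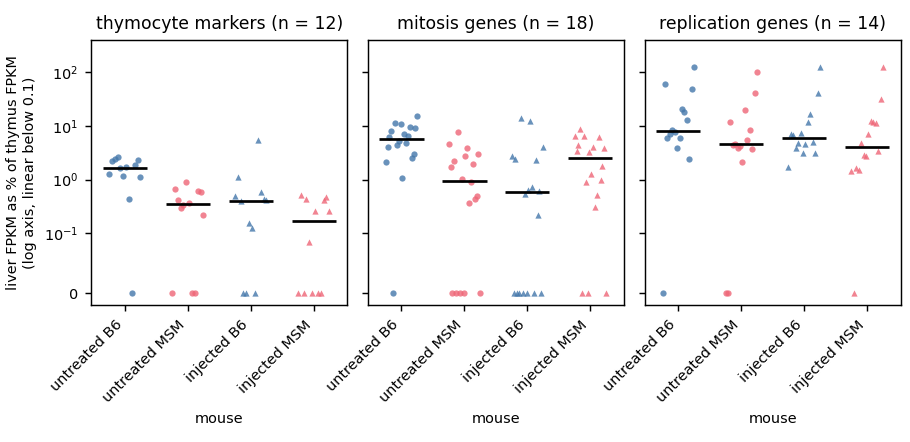
FPKM in liver as a percentage of FPKM in the thymus of the same mouse (log axis, linear below 0.1), for 12 thymocyte markers, 18 mitosis genes and 14 replication genes (1 point per gene; black line, median; blue, B6; red, MSM; circles, untreated; triangles, injected). The medians of the replication genes lie between 4.11% and 8.13%, those of the mitosis genes between 0.576% and 5.75%, and those of the markers between 0.171% and 1.66%.

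The second comparison asked whether the strains differed. In thymus no member was called different between MSM and B6 (limma with treatment as a block, adjusted p under 0.05). Over all 11610 genes the calls were 0.379% higher and 0.594% lower in MSM. At an unadjusted p under 0.05, 4 of 42 members passed, as did 13% of all genes. Cdc20, the activator of the anaphase-promoting complex, had 16.9, 36.7, 27.7 and 42.4 FPKM, with both MSM thymi above both B6 thymi and a difference of 0.84 ± 0.24 (SE; limma, unadjusted p = 0.0123, adjusted p = 0.234). Aurkb, the kinase of the passenger complex, had 9.42, 14.9, 13.7 and 22.1 FPKM and differed by 0.63 ± 0.23 (SE; limma, unadjusted p = 0.0307, adjusted p = 0.333). Cdt1, a licensing factor, had 4.67, 3.21, 7.9 and 2.1 FPKM and differed by -0.98 ± 0.36 (SE; limma, unadjusted p = 0.0338, adjusted p = 0.346). Mybl2 differed by -0.72 ± 0.29 (SE; limma, unadjusted p = 0.0438, adjusted p = 0.376). In 9 members both MSM thymi lay above both B6 thymi and in 6 below, beside 23.1% and 22.3% of all genes. Of the other pathway genes none was called in thymus, and 5 of 42 replication, 4 of 52 mitosis and 1 of 26 brake genes had an unadjusted p under 0.05.

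In thymus the untreated and the injected pair gave different counts of direction, a difference that was not tested. MSM was above B6 in 16 of 42 members untreated and in 31 of 42 injected, and among the 18 mitosis genes in 8 and in 16. Over all 11610 genes it was above in 5831 and in 5995. Cenpa, the histone variant of the centromere, showed this at 22.5, 13.1, 19.6 and 27.1 FPKM, and so did cyclin B2 (Ccnb2) at 36, 22.5, 34.5 and 43.4 FPKM. In both the untreated MSM thymus was the lowest of the 4 and the injected MSM thymus the highest. The thymocyte markers were below B6 in all 12 genes in the untreated pair and in 7 of 12 in the injected pair, and the untreated MSM thymus is the library with hepatocyte, adipose and airway RNA. The part of these markers in the members' values was not tested. Without that library the members' median moved from 0.09 to 0.29, beside 0.03 and 0.04 over all genes. Without the injected MSM thymus it was -0.04, with 16 of 42 members positive, beside -0.02 over all genes. Each fit set the 1 MSM thymus left against both B6 thymi with no treatment term, so treatment and table are mixed with strain.

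In liver 25 of 42 members passed the filter of a mean of at least 1 FPKM, and none was called between the strains (0.51% of 10971 genes were higher and 0.957% lower in MSM). At an unadjusted p under 0.05 there were 4 members, all lower in MSM, beside 16.2% of all genes. Ccnd1, with the liver values given above, differed by -1.70 ± 0.33 (SE; limma, unadjusted p = 0.00417, adjusted p = 0.118). It was lower in MSM in both pairs, by 2.2 untreated and by 1.2 injected. Ube2c, listed at 0 in both MSM livers, passed the filter only through the B6 livers, so its difference of -2.15 is a description. Cdk2 differed by -0.89 ± 0.30 (SE; limma, unadjusted p = 0.0341, adjusted p = 0.267) and Pcna by -1.05 ± 0.38 (SE; limma, unadjusted p = 0.0422, adjusted p = 0.291). Both MSM livers lay above both B6 livers in 2 of the 25 members and below in 9, beside 20.5% and 22.8% of all genes. Of those 9, 4 had a mean of at least 1 FPKM in the B6 livers only. Among the 17 members with such a mean in both strains the counts were 2 above and 5 below. The 7 macrophage and Kupffer cell markers were all lower in MSM livers, with a median of -1.83 and a summed level of 239, 40.5, 122 and 29.2 FPKM over the 4 livers, and their part in the members' values was not tested. MSM reads were aligned to a B6-derived genome. The part of this alignment in the liver differences was not tested. In the thymi of the same mice the MSM minus B6 differences were 0.07 for Ccnd1, -0.36 for Ube2c, 0.22 for Cdk2 and 0.0025 for Pcna. None of them was called, and the untreated MSM thymus among these is the library with hepatocyte, adipose and airway RNA.

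**Figure D4:**
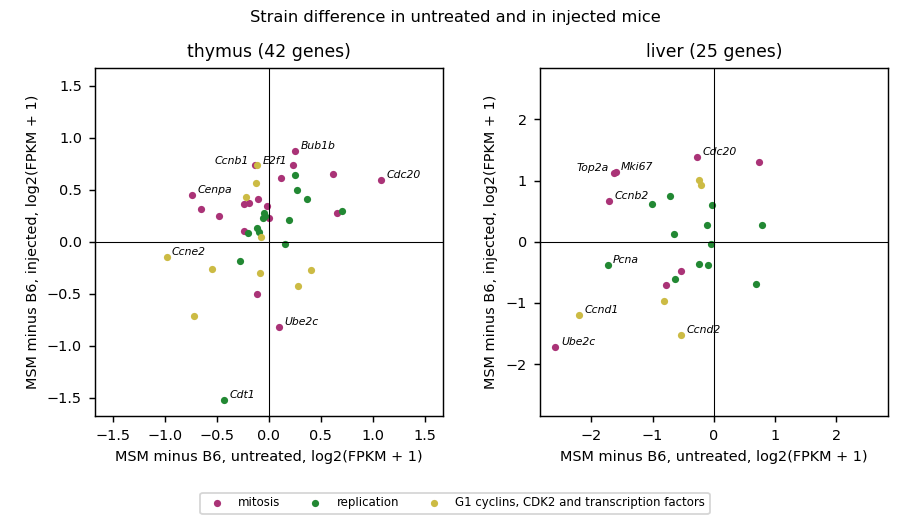
MSM minus B6 difference of log2(FPKM + 1) in the untreated pair (horizontal axis) and the injected pair (vertical axis), in thymus (42 genes) and liver (25 genes that passed the filter), coloured by group, with the 8 farthest genes named in each panel. In liver Ccnd1 and Ube2c are lower in MSM in both pairs, while Mki67 and Top2a change side.

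The direction of the strain difference in liver also varied between the pairs, which was not tested. MSM was above B6 in 3 of 25 members untreated and in 13 of 25 injected, beside 5514 and 5435 of all 10971 genes. Of these 25 members, 5 had a mean of at least 1 FPKM in the B6 livers only and 3 in the MSM livers only. The filter used these same livers, so the counts are a description. Mki67 differed by -1.60 untreated and 1.15 injected, Top2a by -1.63 and 1.12, and Ccnb2 by -1.71 and 0.66. These 3 genes passed the filter only through the untreated B6 and injected MSM livers, so their change of side is a description. The erythroid markers, of which 6 were listed, changed side likewise, with summed levels of 300.1, 94.6, 205 and 421 FPKM over the livers. Their part, and that of the thymocyte markers, was not tested. Among 28 replication, 15 mitosis and 21 brake genes of the pathway that passed the filter, 1 was called in liver, beside 0.51% of all genes higher and 0.957% lower in MSM. This was Pttg1 (securin, the inhibitor of separase). It stood at 35.2, 1.07, 31.3 and 3.55 FPKM in liver and 11.5, 7.36, 16.7 and 13.2 FPKM in thymus, and the difference, MSM minus B6 in liver, was -3.48 ± 0.40 (SE, adjusted p = 0.0377). It was not called when any 1 liver library was left out, where no gene was.

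Whether the strain difference differed between the tissues was tested on each mouse's ratio of liver to thymus. No member was called (limma, adjusted p under 0.05; 0.365% of 12880 genes were), and 4 passed an unadjusted p under 0.05, beside 12.6% of all genes. These were Ccnd1 at -1.77 ± 0.52 (SE; limma, unadjusted p = 0.0163, adjusted p = 0.281), Ube2c at -1.79, Cdk2 at -1.11 and Bub1b at -1.10, each more negative in liver. The median over the members was -0.30, beside -0.04 over all genes. Without the untreated B6 mouse it was 0.04, with 24 of 42 members positive. That fit set the 1 B6 mouse left against both MSM mice with no treatment term, so treatment is mixed with strain. After the thymus profile was subtracted from the livers, the members' median was -0.19. None of the other pathway genes was called, and 5 of 42 replication, 4 of 52 mitosis and 4 of 26 brake genes had an unadjusted p under 0.05. Pttg1 had the greatest value among the further mitosis genes at -3.03 ± 0.42 (SE; limma, unadjusted p = 5.76e-04, adjusted p = 0.0847), and the CDK4/6 inhibitor Cdkn2c among the brakes, with 8.76, 0, 8.61 and 1.41 FPKM in liver and 19.9, 15.7, 18.7 and 22.7 FPKM in thymus, at -2.61 ± 0.40 (SE; limma, unadjusted p = 8.81e-04, adjusted p = 0.0938).

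The third comparison set injected beside untreated mice. Within a tissue it could not be tested, because treatment and table coincide and each group holds 1 library, so the libraries of a tissue were centred by their median ratio and differences of at least 2-fold, 1 on the log2 scale, were counted. In liver none of the 25 members that passed the filter was at least 2-fold higher or lower in both strains, beside 1.66% and 1.24% of 10944 genes. In B6 livers 4 members were at least 2-fold lower after injection and none higher, beside 6.14% and 6.57% of all genes. These were Top2a (-1.89), Mki67 (-1.40), Cdc20 (-1.34) and Ccnd3 (-1.12). In MSM livers 4 were at least 2-fold higher and 1 lower, beside 6.78% and 7% of all genes. The higher ones were Ccnb2 (1.52), Mki67 (1.36), Mcm6 (1.25) and Pcna (1.11), and the lower one was Cdc45 (-1.11), a helicase cofactor. Some of these values rest on very few fragments. Untreated and injected, Cdc20 had an estimated 4 and 0 in the B6 livers, where Top2a had 32 and 3. In the MSM livers Ccnb2 had an estimated 0 and 4, and Cdc45 6 and 1. The median over the 25 members was -0.27 in B6 and 0.30 in MSM, and over the 8 mitosis genes that passed -0.89 and 0.63. For 4 of these 8, Ccnb2, Top2a, Mki67 and Cdc20, the difference was negative in B6 and positive in MSM. Ccnb2, Top2a and Mki67 were under 1 FPKM in the untreated MSM and injected B6 livers. They passed the filter only through the untreated B6 and injected MSM livers, so their opposite signs are a description. The same holds for the medians and the 2-fold counts above, which include these genes. Ube2c, also in the medians, passed only through the B6 livers. In the same livers the 7 thymocyte markers that passed had a median of -1.62 in B6 and of -0.12 in MSM. The 3 erythroid markers that passed had -0.54 and 2.06, and the part of both in the members' values was not tested.

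**Figure D5:**
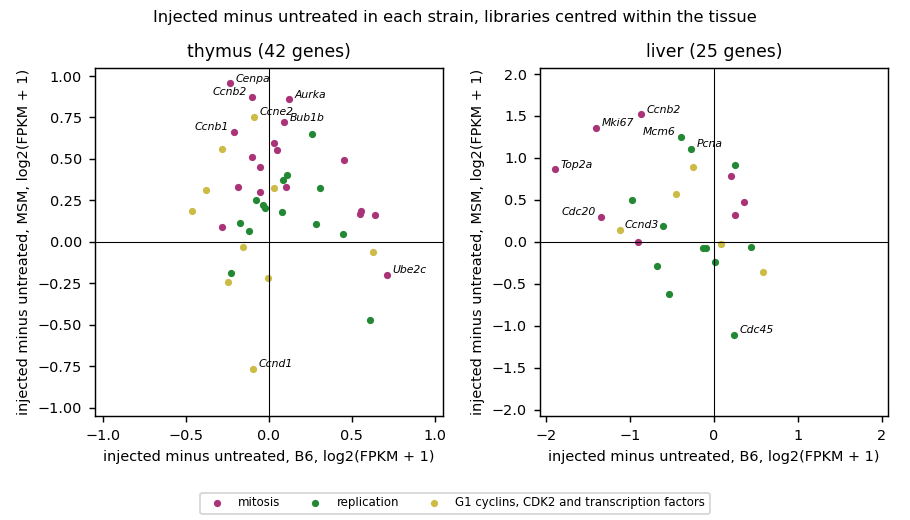
Injected minus untreated difference of log2(FPKM + 1) in B6 (horizontal axis) and MSM (vertical axis) after centring the libraries of a tissue, in thymus (42 genes) and liver (25 genes that passed the filter), coloured by group, with the 8 farthest genes named in each panel. In liver Mki67 and Top2a are negative in B6 and positive in MSM, and in thymus no gene reaches 1 on either axis.

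In thymus none of the 42 members was at least 2-fold higher or lower in either strain, beside 2.05% and 1.78% of 11607 genes in B6 and 2.12% and 8.92% in MSM. Over all genes 0.267% were higher and 0.422% lower in both strains. The median over the members was -0.01 in B6 and 0.28 in MSM. In MSM 34 of 42 members were positive, and among the 18 mitosis genes 17, with a median of 0.47. Over all 11607 genes 6093 were positive in MSM, with a median of 0.03. The values nearest to 2-fold in MSM were those of Cenpa (0.96), Ccnb2 (0.88) and Aurka (0.86), a kinase of spindle poles. In the same pair all 12 thymocyte markers were positive with a median of 0.50 and all 8 hepatocyte markers negative with a median of -3.95, and the part of the untreated MSM thymus in this was not tested. Cdk1, the main mitotic kinase, held 20.3, 20.0, 17.1 and 22 FPKM across the thymi and Mcm3, a helicase subunit, 35, 32.2, 35.2 and 38.8 FPKM.

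The difference between injected and untreated mice was also compared between tissues by the liver minus thymus ratio, in which a scaling shared by both tissues of a table cancels. No member was called (limma, adjusted p under 0.05; 0.0388% of 12880 genes were), and 1 passed an unadjusted p under 0.05, beside 7.56% of all genes. That gene was Bub1b at -1.18 ± 0.38 (SE; limma, unadjusted p = 0.0231, adjusted p = 0.595), with 1.4, 0.333, 0.160 and 0 FPKM in liver. The members' median was -0.31, beside 0.01 over all genes. It was -0.12 without the untreated B6 mouse, -0.55 without the untreated MSM mouse and -0.16 after the thymus profile was subtracted from the livers. The fits that left out a mouse had no strain term, so strain is mixed with treatment in them. With all 4 mice the 12 thymocyte markers had a median of -0.98 in this comparison, all 12 negative. None of the other pathway genes was called, and 4 of 42 replication, 6 of 52 mitosis and 4 of 26 brake genes had an unadjusted p under 0.05. The design leaves 1 residual degree of freedom for this test and for the strain tests, so differences of moderate size could be missed.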

How the data were processed

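Polyadenylated RNA of 8 libraries (TruSeq kit, RNA taken up in TriPure) was aligned with TopHat to mm10 and quantified with Cuffdiff 2.2.1, per the submitters' processing notes. The sources used here give neither the annotation nor the level of the deposited bounds. The authors deposited FPKM values in 2 tables normalized separately, untreated and injected, of 23284 genes. Groups came from the sample titles. Members and gene lists were chosen with earlier results of these data known. All 42 members and the marker genes could be named. Of each list among 122 other pathway genes, the 5 genes with the greatest difference among those with a mean of at least 5 FPKM could be named. Wee1 was named besides. The result of 1 further pathway gene is not reported here.

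Genes whose mean reached 1 FPKM (in either tissue, for tissue comparisons) were tested as log2(FPKM + 1) with limma 3.58.1 in R 4.3.3 (two-sided, mean trend, Benjamini-Hochberg adjustment over all genes tested). The mouse was a block for tissue, and treatment a block for strain. The liver and thymus of a number come from the same mouse, by the study's design. A strain and treatment was 1 mouse, so no p-value measures the spread between mice of the same group. For tissue, p-values rest on how far the liver minus thymus difference varied over the 4 mice. For strain they rest on how far the difference varied between the untreated and the injected pair, and likewise for the ratios. In each case limma draws that spread toward the spread of the other genes. The script was tested on simulated data. Gene positions are from GENCODE on mm10, and all 42 overlapped the deposited loci.

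Depth was estimated from FPKM steps of 6228 genes that have 1 transcript, 1500 nt or longer. The length was reduced by 200 nt, a value chosen on these data because it gave the most whole numbers. Between 71.2% and 74.1% of low values then lay within 0.1 of a whole fragment, beside 20% by chance, so fragment numbers are estimates. Alternatives were other added constants (0.1 and 5), filters, scalings, model terms and leaving out libraries, and promoter and protein sequences were not used here.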

Additional observations from a re-analysis of the deposited data

How the results depend on the processing

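With a filter of 5 FPKM 36 of 38 members tested were lower in liver. The other counts of called members were the same in all alternatives run except rescaling to a common sum. There 0 members were higher in liver than in thymus (1 otherwise), with Ccnd1 at 0.99 (adjusted p = 0.0905) and Tk1 at -0.79 (adjusted p = 0.00571, reversed from 0.24), because a common sum lowers every liver library against thymus. It also gave 1 member called lower in MSM livers, Ccnd1 at -1.87 (adjusted p = 0.0278, range over the alternatives 0.0278 to 0.618). Without the mouse as a block 1 member was higher and 40 were lower in liver, so the pairing changed no call. Leaving out 1 mouse gave 1 and 40 each time. The excess of replication over mitosis genes within livers depended on the added constant, since many values are near 0. With 5 it was 0.29, 0.30, 0.38 and 0.21 in the 4 livers, and with 0.1 it was 1.81 in the untreated MSM, 2.52 in the injected B6 and 0.83 in the injected MSM liver. The counts over all genes varied more than 1.5-fold. Between tissues they ranged from 2080 to 3706 higher and 3064 to 7594 lower in liver (3687 and 4134 as reported). For strain they ranged from 3 to 248 higher and 7 to 163 lower in thymus (44 and 69 as reported) and from 0 to 106 and 0 to 256 in liver (56 and 105), with 0 whenever a liver library was left out. For the tissue ratios they ranged from 0 to 53 and 0 to 79 by strain (14 and 33 as reported) and from 0 to 2 and 0 to 3 by treatment (2 and 3). Leave-one-out strain fits had no treatment term, and the lone library of a group was assumed to vary like the others. In the 4 livers 5, 10, 10 and 6 of 42 members were listed at 0.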

Other observations

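Some cell cycle brakes and further pathway genes showed values not described above. Injected and untreated mice were not tested within a tissue, and none of the genes named here was called between the strains or in the ratios of liver to thymus (limma, adjusted p under 0.05). Wee1, the kinase that holds CDK1 inactive, was the 1 of 21 brakes at least 2-fold higher in both strains after injection in liver. It had 0.946, 0.898, 8.64 and 5.34 FPKM there, beside 5.14, 4.73, 5.35 and 4.99 FPKM in thymus. Gins1, a subunit of the replicative helicase, was the 1 of 28 further replication genes at least 2-fold lower in both strains. The condensin subunit Smc2 was the 1 of 15 further mitosis genes. They had 3.44, 7.84, 0 and 0.719 FPKM and 3.09, 2.82, 0.868 and 0.870 FPKM in liver. Over all 10944 genes 1.66% were higher and 1.24% lower in both strains. In the ratio of liver to thymus, injected minus untreated, Wee1 differed by 1.97 ± 0.42 (SE; limma, unadjusted p = 0.00435, adjusted p = 0.530) and Gins1 by -2.03 ± 0.40 (SE; limma, unadjusted p = 0.00299, adjusted p = 0.478). These 3 genes were chosen after their values were seen, and Wee1 lay outside the rule for naming genes given above. Btg2, an antiproliferative gene, stood at 1.69, 2.41, 4.05 and 13.9 FPKM in liver, highest in the injected MSM mouse. Ncapg, a condensin subunit, was high in the same library at 0.696, 2.64, 0.159 and 8.0 FPKM, where Ccna2 was highest too at 4.63 FPKM. Other mitosis genes, among them Mki67, Top2a, Kif11, Ube2c and Smc2, were instead highest in the untreated B6 liver.

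In thymus Incenp, the scaffold of the chromosomal passenger complex, had 16.3, 27.5, 20.0 and 33.8 FPKM, with both MSM thymi above both B6 thymi, as for Aurkb, its kinase. It differed by 0.73 ± 0.22 (SE; limma, unadjusted p = 0.0157, adjusted p = 0.257). Cdca8 (borealin), another subunit of the complex, went the other way at 14.3, 7.46, 16.9 and 11.9 FPKM, a difference of -0.66 ± 0.24 (SE; limma, unadjusted p = 0.0343, adjusted p = 0.348).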
